A study of Rattus norvegicus with 12 samples.

Results

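The genes of the activin system were read in 12 RNA-seq libraries of whole rat lung: the activin subunit genes Inhba and Inhbb, the receptor genes Acvr2a, Acvr2b, Acvr1 and Acvr1b, the follistatin genes Fst, Fstl1 and Fstl3, and the feedback inhibitor Smad7. These 10 genes were chosen by symbol, and each matched 1 row of the 32883 genes in the deposited table, whose values were taken as read counts. All 10 were among the 15257 genes with enough reads to test. The libraries fell into 3 groups of 4, all labelled WT. MCT-Fer-1 lungs came from rats given monocrotaline and ferrostatin-1, MCT-vehicle lungs from rats given monocrotaline and the vehicle of ferrostatin-1, and Control lungs from control rats. Monocrotaline is a plant alkaloid that injures lung vessels and is used to model pulmonary hypertension, and ferrostatin-1 is an inhibitor of ferroptosis, a cell death driven by lipid peroxidation. Dosing with ferrostatin-1 or vehicle lasted 10 days, and a time of 25 days is given for all 3 groups without the day it counts from. No vehicle is stated for Control, so that monocrotaline and vehicle dosing cannot be told apart against Control. Strain, sex, age and monocrotaline dose were not given.

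Activins are secreted dimers of beta subunits of the TGF-beta superfamily. Activin A is made of the Inhba product and activin B of the Inhbb product. They bind a type II receptor, the product of Acvr2a or Acvr2b, which recruits and activates a type I receptor, chiefly the product of Acvr1b, and this phosphorylates SMAD2 and SMAD3. Acvr1 encodes a type I receptor used mainly by bone morphogenetic proteins (BMPs), which share the type II receptors with activins. Follistatin, from Fst, and the related product of Fstl3 wrap around activins and keep them from their receptors. Fstl1 encodes a more distant secreted glycoprotein with a follistatin-like domain, which binds BMP4 in the mouse. Smad7 is induced by TGF-beta and activin signals and blocks type I receptors. In human pulmonary arterial hypertension the pathway is a drug target, since a soluble form of the ACVR2A extracellular domain that traps activins is used as a treatment.

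The promoter windows of the 4 genes that passed the test in at least 1 comparison with Control are shown, because they are the genes the results turn on and their starts differ in make-up. The sequences are those of RefSeq for the rat build GRCr8, 250 bases before to 50 after the gene start, 5′ to 3′ on the gene's strand. Of the 10 genes, 8 have a window in that source, and Acvr1 and Fst, which have none, were left out of the promoter search only. Capitals mark the motif matches named after the sequences.
Inhba, chr17:53804459-53804758, minus strand: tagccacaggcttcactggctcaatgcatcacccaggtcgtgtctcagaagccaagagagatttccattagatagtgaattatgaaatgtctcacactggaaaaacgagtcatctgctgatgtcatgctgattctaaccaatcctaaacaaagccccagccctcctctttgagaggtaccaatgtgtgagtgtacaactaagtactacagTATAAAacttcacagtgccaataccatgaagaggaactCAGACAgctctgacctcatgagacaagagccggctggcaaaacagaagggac
Inhbb, chr13:33089324-33089623, minus strand: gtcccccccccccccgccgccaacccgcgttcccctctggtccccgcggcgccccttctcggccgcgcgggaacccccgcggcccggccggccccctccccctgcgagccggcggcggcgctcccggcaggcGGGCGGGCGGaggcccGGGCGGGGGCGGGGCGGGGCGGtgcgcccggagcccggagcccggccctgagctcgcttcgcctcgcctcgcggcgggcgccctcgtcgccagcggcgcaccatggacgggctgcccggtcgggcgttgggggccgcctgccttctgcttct
Fstl1, chr11:76454004-76454303, minus strand: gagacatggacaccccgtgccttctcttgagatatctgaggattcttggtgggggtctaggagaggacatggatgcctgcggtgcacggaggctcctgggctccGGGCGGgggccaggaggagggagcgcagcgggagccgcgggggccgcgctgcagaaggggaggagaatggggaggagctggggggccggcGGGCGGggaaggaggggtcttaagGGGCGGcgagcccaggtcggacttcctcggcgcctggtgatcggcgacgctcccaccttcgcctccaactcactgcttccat
Smad7, chr18:71263258-71263557, plus strand: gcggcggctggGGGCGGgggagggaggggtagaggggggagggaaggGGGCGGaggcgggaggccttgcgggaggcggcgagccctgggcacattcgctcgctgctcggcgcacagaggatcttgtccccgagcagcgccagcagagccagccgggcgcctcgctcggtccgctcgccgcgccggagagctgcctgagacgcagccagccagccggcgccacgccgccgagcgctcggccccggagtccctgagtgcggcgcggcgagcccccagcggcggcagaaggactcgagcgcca

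The windows were searched on both strands for the SMAD palindrome GTCTAGAC, the SMAD-binding CAGA box CAGACA, the AP-1 site TGANTCA, the cyclic AMP element TGACGTCA, the TATA box TATAAA and the GC box GGGCGG. In the Inhba window, TATAAA lay from 40 to 35 bases before the start and CAGACA spanned the start, and GC content was 45.7%. The windows of Inhbb, Fstl1 and Smad7 were GC-rich, at 84.3%, 68.7% and 77.7%, against a median of 51.7% over all windows. They held 6, 3 and 2 GC boxes, some of those of Inhbb overlapping each other, and no other motif searched for. Of 33469 rat windows of the same length, 14.2% held TATAAA, 21.1% CAGACA, 33.1% GGGCGG, 7.33% TGANTCA, 1.83% TGACGTCA and 0.197% GTCTAGAC. These are letter matches in short windows and were not tested against any measurement. Among the other 4 windows, those of Acvr2b and Acvr1b held 3 GC boxes each, that of Fstl3 4 GC boxes, a TATA box and a CAGA box, and that of Acvr2a none of the motifs. Their GC content was 77.3% (Acvr2b), 78% (Acvr1b), 69% (Fstl3) and 51% (Acvr2a), so GC-rich windows were not particular to the called genes.

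Library totals were 11601929 to 70627239 counts in MCT-Fer-1, 13654695 to 24016262 in MCT-vehicle and 16640022 to 18229992 in Control, so that 3 counts correspond to 0.0420 to 0.259 CPM, a gene's reads scaled to library size. Whether the libraries of a group stem from different rats is not stated, and a p-value then measures the spread between libraries, which may be technical. The lung epithelial genes Sftpc, Sftpb, Sftpa1, Ager and Scgb1a1 had at least 36371 counts in every library, and summed to 28442 to 42796 CPM in MCT-Fer-1, 28779 to 38344 CPM in MCT-vehicle and 39730 to 42040 CPM in Control. Heart-muscle genes stood high in MCT-vehicle 2 and Control 4, where they reached 405 and 247 CPM in sum, against 16.5 to 44.1 CPM in MCT-Fer-1, 21.4 to 76.9 CPM in the other MCT-vehicle libraries and 16.5 to 35.1 CPM in the other Control libraries. Myh6, Myh7, Myl7, Nppa and Nppb were at 0 in some libraries. Values below are CPM on library sizes scaled by the trimmed mean of M-values (TMM), log2 fold changes carry their standard error, and a gene was called when its edgeR adjusted p over all genes tested was below 0.05.

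Both activin subunit genes changed in MCT-vehicle lungs, in opposite directions. Inhba was higher and Inhbb lower than in Control, though the Inhba call was lost under 8 of 21 alternative settings. Fstl1 was also higher and Smad7 lower, while none of the 4 receptor genes, Fst or Fstl3 passed the test. Thus 2 of 10 genes rose in MCT-vehicle against Control, where 10.3% of all genes tested rose, and 2 of 10 fell, where 8.28% did. The median log2 fold change of the 10 was 0.01, against 0.02 over all genes tested. Against Control, 1 of 10 rose in MCT-Fer-1 (Fstl1; 6.67% of all genes) and 2 of 10 fell (Inhbb and Smad7; 4.12% of all genes), with a median of 0.12, against 0.00 over all genes. Both comparisons share the 4 Control libraries. Between MCT-Fer-1 and MCT-vehicle edgeR called 0 of the 10 genes, as it did 0% of all genes. With 10 genes, each of these counts lay within 2 genes of the share of all genes.

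**Figure D1:**
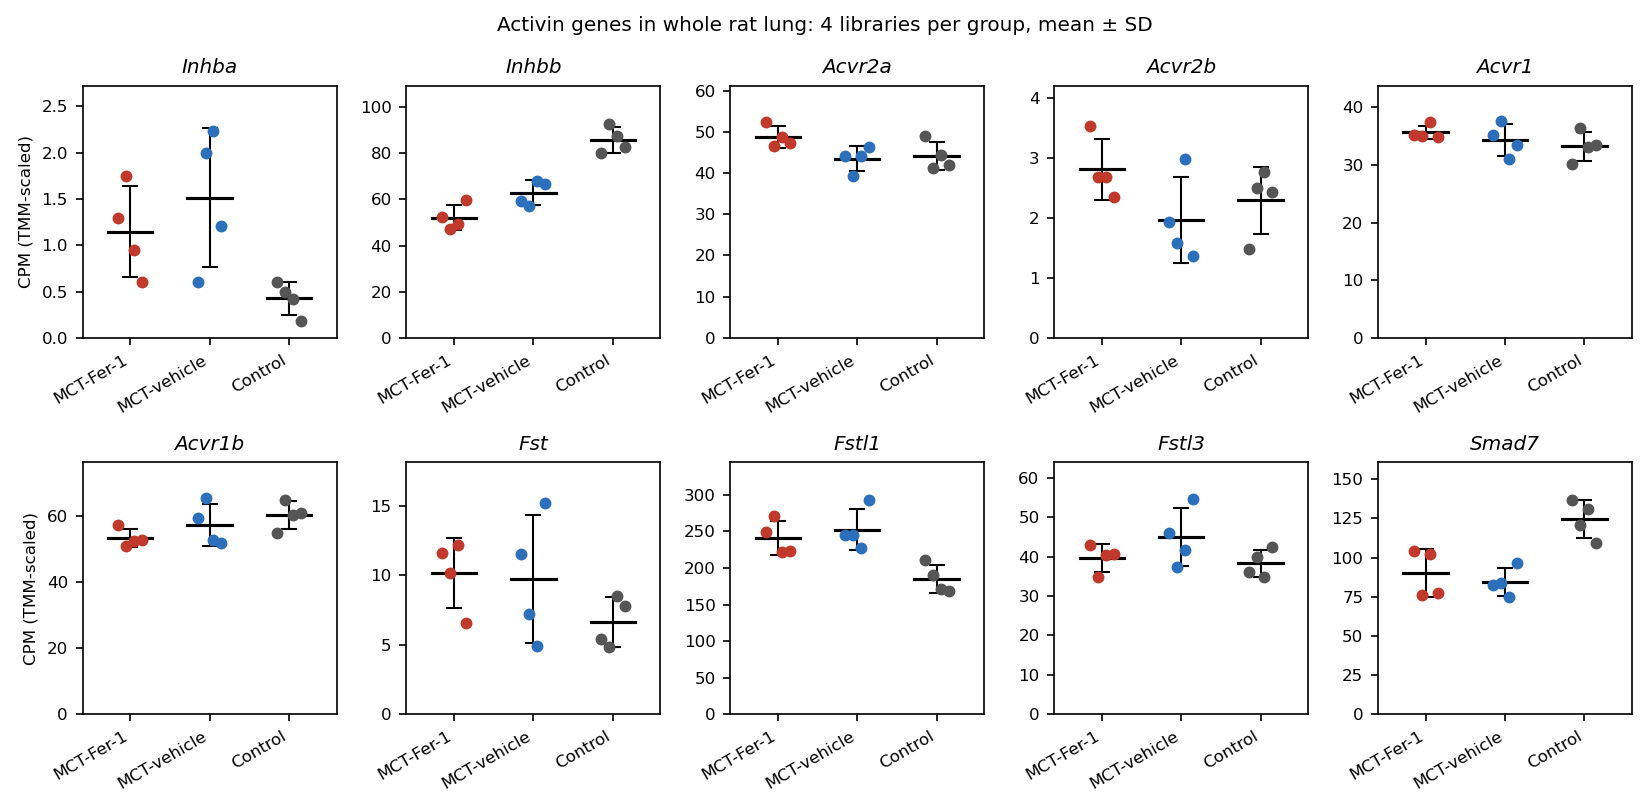
CPM of the 10 activin genes (vertical axes from 0, a scale for each gene) in MCT-Fer-1, MCT-vehicle and Control lungs, with a point for each library, a bar at the mean of 4 and whiskers of 1 SD. Inhbb and Smad7 lie highest in Control, Fstl1 lies lowest there, and Inhba has a wide spread in both monocrotaline groups.

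Inhba, the subunit of activin A (ENSRNOG00000014320), was a low-count gene. It had 1.29, 1.75, 0.946 and 0.601 CPM in MCT-Fer-1, 0.598, 2.00, 2.24 and 1.21 CPM in MCT-vehicle, and 0.605, 0.498, 0.422 and 0.178 CPM in Control. Most monocrotaline libraries were above all Control libraries, but MCT-vehicle 1 and MCT-Fer-1 4 lay inside the Control range. These levels rest on 15 to 43 reads in MCT-Fer-1, 14 to 44 in MCT-vehicle and 3 to 11 in Control, and Control 4 sat at the 3-count floor. The log2 fold change in MCT-vehicle against Control was 1.79 ± 0.51, a 3.46-fold higher fitted level (95% interval 0.69 to 2.89 on the log2 scale; edgeR adjusted p = 0.0264). For MCT-Fer-1 it was 1.38 ± 0.51, and the adjusted p of 0.108 missed the threshold.

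The Inhba call in MCT-vehicle was not stable. It was made under 13 of 21 alternative settings, with log2 fold changes of 1.36 to 2.07. Without MCT-vehicle 2 and Control 4, the libraries with the highest heart-muscle sums, the log2 fold change was 1.36 ± 0.56 and the edgeR adjusted p 0.146. It was also lost on leaving out MCT-vehicle 2 (adjusted p = 0.0663), MCT-vehicle 3 (0.0644), Control 2 (0.0545), Control 3 (0.0663) or Control 4 (0.0752). With limma voom the adjusted p was 0.0584, and with all libraries thinned to the smallest total it was 0.0582. Inhba was higher in MCT-vehicle under all 21 settings.

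Inhbb, the subunit of activin B (ENSRNOG00000060237), was well measured and fell. It had 52.4, 47.1, 49.4 and 59.7 CPM in MCT-Fer-1, 59.1, 57.3, 68.2 and 66.8 CPM in MCT-vehicle, and 80.3, 92.6, 87.5 and 82.7 CPM in Control. Each monocrotaline library was below the lowest Control library. MCT-Fer-1 lay lowest, with only MCT-Fer-1 4 inside the MCT-vehicle range. The log2 fold change was -0.45 ± 0.09 in MCT-vehicle against Control (edgeR adjusted p = 0.00357), a level that fell by 26.8%, and -0.72 ± 0.09 in MCT-Fer-1 against Control (edgeR adjusted p = 2.53e-04), a level that fell by 39.2%. Both calls were made under all 21 alternatives. Between MCT-Fer-1 and MCT-vehicle the log2 fold change was -0.27 ± 0.09 (95% interval -0.45 to -0.08), with an unadjusted p of 0.00864 and an edgeR adjusted p of 0.268, so the lower level in MCT-Fer-1 did not pass the test over all genes.

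The subunit transcripts were also set against each other within each library. The ratio of Inhba to Inhbb CPM within a library was 0.0101 to 0.0372 in MCT-Fer-1, 0.0101 to 0.0348 in MCT-vehicle and 0.00215 to 0.00753 in Control, so that each monocrotaline library was above each Control library. In MCT-vehicle 1 and MCT-Fer-1 4, Inhba itself lay inside its Control range, at 0.598 and 0.601 CPM, and only Inhbb lay outside its own. The separation of the ratio thus adds nothing to the separate results of the genes. Transcript length enters this ratio equally in all groups, so it compares groups and not the amounts of the subunits. The ratio was computed from the values above and was not tested, and in Control it rests on 3 to 11 Inhba reads. In whole lung, a gene's lower level from fewer cells of a type and from less RNA per cell cannot be told apart.

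Of the 4 receptor genes, none passed the test in any of the 3 comparisons. Acvr2a, a type II receptor gene (ENSRNOG00000005334), had 52.5, 46.5, 48.8 and 47.2 CPM in MCT-Fer-1, 44.2, 39.2, 44.2 and 46.2 CPM in MCT-vehicle, and 49.0, 41.3, 44.3 and 42.0 CPM in Control. Each MCT-Fer-1 library was above each MCT-vehicle library, the sole such separation among the 10 genes, where 6.1% of all genes tested had values that did not overlap between these groups. The log2 fold change was 0.17 ± 0.08 (95% interval 0.00 to 0.33), with an edgeR p of 0.0506 and an adjusted p of 0.415.

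Acvr2b, the second type II receptor gene (ENSRNOG00000014477), was at 2.35 to 3.53 CPM in MCT-Fer-1, 1.37 to 2.98 CPM in MCT-vehicle and 1.48 to 2.77 CPM in Control. Its groups overlapped, and its intervals were wide, from -0.09 to 1.12 on the log2 scale in MCT-Fer-1 against MCT-vehicle and from -0.85 to 0.38 in MCT-vehicle against Control. Acvr1b, the activin type I receptor gene (ENSRNOG00000006934), was at 50.9 to 57.1 CPM in MCT-Fer-1, 51.8 to 65.5 CPM in MCT-vehicle and 54.8 to 65.0 CPM in Control. These groups overlapped in all comparisons. Its log2 fold change was -0.18 ± 0.08 in MCT-Fer-1 against Control (edgeR adjusted p = 0.206) and -0.07 ± 0.08 in MCT-vehicle against Control (0.603). Acvr1, the BMP type I receptor gene (ENSRNOG00000005033), was at 34.9 to 37.4 CPM in MCT-Fer-1, 31.1 to 37.6 CPM in MCT-vehicle and 30.1 to 36.3 CPM in Control. For Acvr1 the 95% interval ran from -0.12 to 0.22 in MCT-vehicle against Control and from -0.07 to 0.27 in MCT-Fer-1 against Control.

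**Figure D2:**
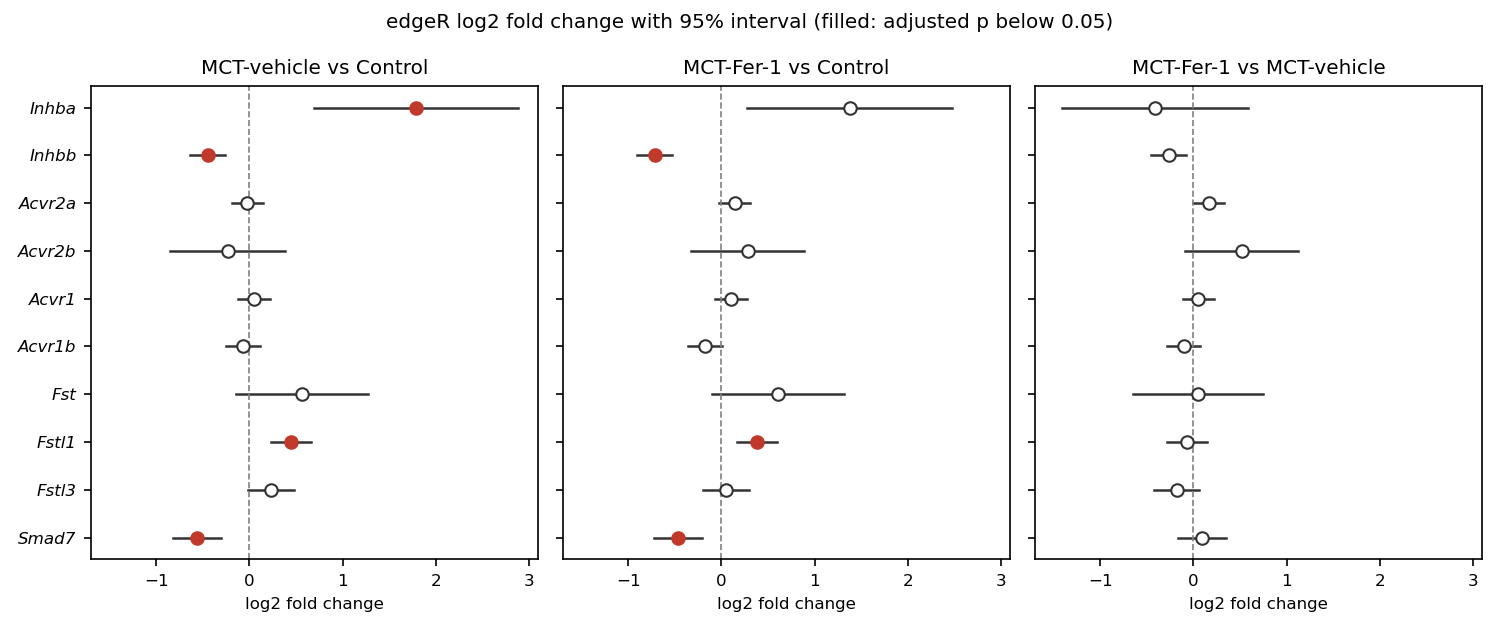
Log2 fold changes (horizontal axes) of the 10 activin genes in 3 comparisons, points with 95% intervals from edgeR, filled where the adjusted p was below 0.05. Filled points stand at Inhba, Inhbb, Fstl1 and Smad7 in MCT-vehicle against Control, at Inhbb, Fstl1 and Smad7 in MCT-Fer-1 against Control, and at none in MCT-Fer-1 against MCT-vehicle.

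Among the follistatin genes, Fstl1 rose and the activin-binding Fst and Fstl3 did not pass the test. Fstl1 (ENSRNOG00000002746) had 249, 271, 222 and 223 CPM in MCT-Fer-1, 245, 245, 227 and 293 CPM in MCT-vehicle, and 211, 190, 171 and 169 CPM in Control. Each monocrotaline library was above the highest Control library, and the monocrotaline groups overlapped. The log2 fold change was 0.45 ± 0.10 in MCT-vehicle against Control (edgeR adjusted p = 0.00827), called under all 21 alternatives. For MCT-Fer-1 against Control it was 0.38 ± 0.10 (edgeR adjusted p = 0.0289). That call was lost without MCT-Fer-1 1 (0.0558), MCT-Fer-1 2 (0.0888), Control 2 (0.0602), Control 3 (0.0847) or Control 4 (0.0907), and without MCT-vehicle 2 and Control 4 together (0.103).

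Fst, the gene of follistatin (ENSRNOG00000011631), had 11.6, 10.1, 12.2 and 6.59 CPM in MCT-Fer-1, 11.5, 7.21, 4.92 and 15.2 CPM in MCT-vehicle, and 5.39, 4.82, 8.49 and 7.81 CPM in Control. The groups overlapped, and MCT-vehicle had the widest spread, with a coefficient of variation of 47.1%, against 24.8% in MCT-Fer-1 and 27.1% in Control. Its log2 fold change was 0.56 ± 0.33 in MCT-vehicle against Control (95% interval -0.15 to 1.27; edgeR adjusted p = 0.259) and 0.61 ± 0.33 in MCT-Fer-1 against Control (-0.10 to 1.31; 0.277), so that both intervals held 0 and changes as large as that of Fstl1. Fstl3 (ENSRNOG00000009311) was at 34.7 to 42.9 CPM in MCT-Fer-1, 37.5 to 54.5 CPM in MCT-vehicle and 34.8 to 42.4 CPM in Control. Its log2 fold change was 0.23 ± 0.11 in MCT-vehicle against Control (edgeR adjusted p = 0.178) and 0.05 ± 0.11 in MCT-Fer-1 against Control (0.831).

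Smad7, the inhibitory SMAD gene (ENSRNOG00000018359), fell in both monocrotaline groups. It had 104, 76.2, 102 and 77.5 CPM in MCT-Fer-1, 82.6, 83.6, 75.0 and 96.5 CPM in MCT-vehicle, and 137, 121, 131 and 109 CPM in Control. Each monocrotaline library was below the lowest Control library, and the MCT-Fer-1 libraries split into a pair above 100 CPM and a pair below 80 CPM. The log2 fold change was -0.56 ± 0.12 in MCT-vehicle against Control (edgeR adjusted p = 0.00633), a level that fell by 32.2%, and this call was made under all 21 alternatives. The MCT-Fer-1 value against Control was -0.47 ± 0.12 (edgeR adjusted p = 0.0249), a level that fell by 27.7%. That call was lost without MCT-Fer-1 2 (0.0757), MCT-Fer-1 4 (0.0675), Control 1 (0.0671), Control 2 (0.0511) or Control 3 (0.0672).

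Counted over the 10 genes, 3 had values that did not overlap between MCT-vehicle and Control (Inhbb, Fstl1 and Smad7), where 21.5% of all genes tested did not. The same 3 genes did not overlap between MCT-Fer-1 and Control, where 19.1% of all genes did not. A share of 3 in 10 is thus near that of all genes in both comparisons.

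**Figure D3:**
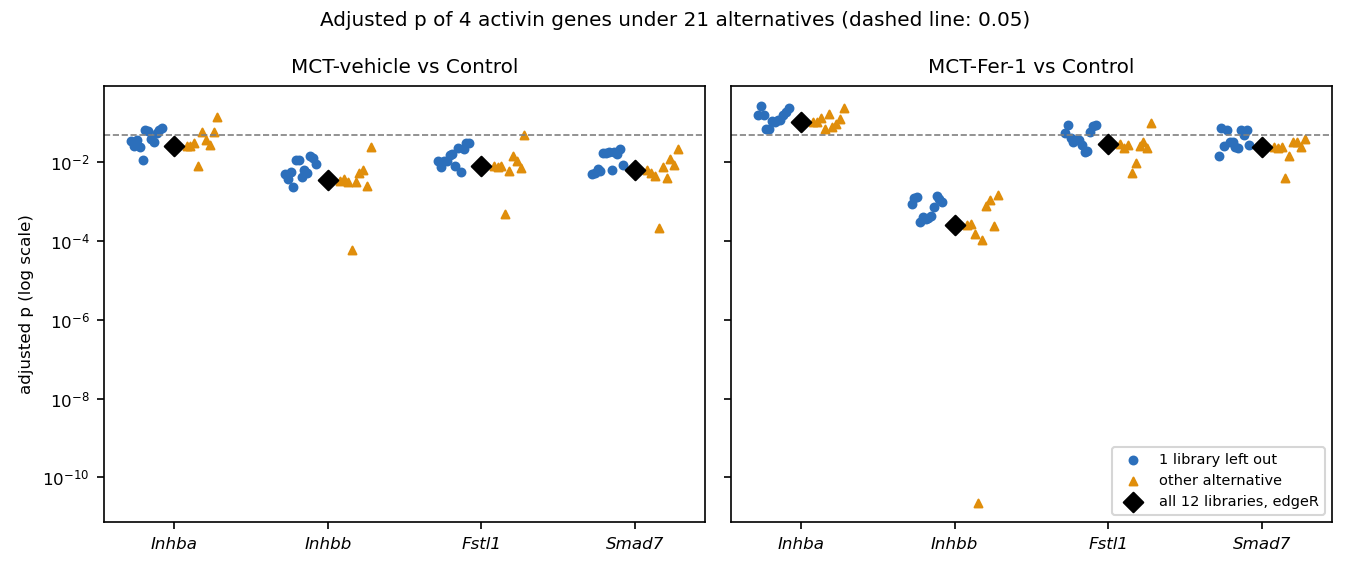
EdgeR adjusted p (vertical axis, log scale) of Inhba, Inhbb, Fstl1 and Smad7 in both comparisons with Control, with all 12 libraries and under 21 alternatives, of which 12 leave out 1 library each. Inhbb lies below the dashed line at 0.05 throughout in both panels, Fstl1 and Smad7 do so in MCT-vehicle against Control, and Inhba crosses it there.

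The comparison of MCT-Fer-1 with MCT-vehicle asked whether ferrostatin-1 altered these genes after monocrotaline. EdgeR called 0 of the 10, and 1 of them, Inhbb, had an unadjusted p below 0.05. DESeq2 and limma voom also called 0 of the 10, where they called 227 of 15148 and 0 of 15257 genes, with 2 (Inhbb and Acvr2a) and 1 (Inhbb) at an unadjusted p below 0.05. EdgeR's smallest adjusted p over all genes was 0.114, and 1835 of 15257 genes had an unadjusted p below 0.05. The 95% intervals ran for Fstl1 from -0.28 to 0.15, for Smad7 from -0.17 to 0.35, for Fst from -0.65 to 0.74 and for Inhba from -1.41 to 0.58 on the log2 scale.

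The rest of the pathway was read from 4 further lists, whose medians stand beside all-gene medians of 0.02 in MCT-vehicle against Control, 0.00 in MCT-Fer-1 against Control and -0.01 in MCT-Fer-1 against MCT-vehicle. Of 8 other ligand and subunit genes, 2 had enough reads to test, and 0 of these passed in any comparison. Inhbc and Gdf1 had 0 counts in all libraries, and Inhbe, Mstn, Gdf3 and Nodal had 4, 3, 9 and 22 counts at most in a library. Gdf11, a ligand of the type II receptors close to myostatin, was at 6.39 to 7.24 CPM in MCT-Fer-1, 5.07 to 7.88 CPM in MCT-vehicle and 3.41 to 5.70 CPM in Control, with a log2 fold change of 0.42 ± 0.19 in MCT-vehicle against Control (edgeR adjusted p = 0.146). Inha, whose product joins a beta subunit to form the antagonist inhibin, was at 2.15 to 3.46 CPM in MCT-Fer-1, 2.21 to 3.42 CPM in MCT-vehicle and 1.63 to 3.02 CPM in Control (0.28 ± 0.26; edgeR adjusted p = 0.494).

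Of 11 genes of further receptors, co-receptors and traps, 8 were tested, and 0 rose and 2 fell in MCT-vehicle against Control, with a median log2 fold change of -0.13, where 10.3% of all genes tested rose and 8.28% fell. Tgfbr3, which encodes betaglycan, the co-receptor that lets inhibin block type II receptors, had 262, 151, 143 and 170 CPM in MCT-Fer-1, 142, 161, 148 and 177 CPM in MCT-vehicle, and 243, 245, 283 and 250 CPM in Control. MCT-Fer-1 1 lay inside the Control range, and the other monocrotaline libraries lay below it. The change was -0.70 ± 0.16 on the log2 scale in MCT-vehicle against Control (edgeR adjusted p = 0.00995), and MCT-Fer-1 against Control did not pass, at an adjusted p of 0.0700. Cfc1, a co-receptor gene for nodal-type ligands, was at 0.507 to 0.719 CPM in MCT-Fer-1, 0.272 to 0.597 CPM in MCT-vehicle and 0.723 to 1.54 CPM in Control. MCT-Fer-1 against Control did not pass (-0.96 ± 0.34; edgeR adjusted p = 0.0949). MCT-vehicle against Control was called (-1.29 ± 0.36; edgeR adjusted p = 0.0240). That call was lost without MCT-vehicle 1 (0.0539), MCT-vehicle 2 (0.0625), Control 2 (0.0708), Control 4 (0.0783), or MCT-vehicle 2 and Control 4 together (0.148), and after thinning Cfc1 had too few reads to test. Wfikkn2, which encodes a secreted antagonist of myostatin and Gdf11 proteins, and Fkbp1a, whose product binds type I receptors, did not pass the test, with adjusted p of 0.152 and 0.305. Wfikkn2 was at 1.10 to 1.30 CPM in MCT-Fer-1, 0.671 to 1.54 CPM in MCT-vehicle and 0.414 to 1.21 CPM in Control. It passed in MCT-vehicle against Control when Control 1 was left out (edgeR adjusted p = 0.0224).

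Of 11 SMAD transducers, partners and brakes, 10 were tested, and 3 fell and 0 rose in MCT-vehicle against Control (median -0.17), where 8.28% of all genes tested fell, as they did in MCT-Fer-1 against Control (median -0.10), where 4.12% fell. The 3 were the same genes in both. Smad6, the inhibitory SMAD that acts mainly on BMP receptors, had 68.9, 34.2, 57.5 and 37.5 CPM in MCT-Fer-1, 62.4, 32.4, 41.3 and 63.5 CPM in MCT-vehicle, and 113, 112, 148 and 127 CPM in Control. Its monocrotaline libraries all lay below its Control libraries, with log2 fold changes of -1.34 ± 0.26 in MCT-Fer-1 (edgeR adjusted p = 0.00663) and -1.32 ± 0.26 in MCT-vehicle (0.00452), called under all 21 alternatives in both. Both inhibitory SMAD genes, Smad6 and Smad7, were thus lower in monocrotaline lungs.

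Smad4, the common partner of receptor-activated SMADs, was at 69.5 to 77.2 CPM in MCT-Fer-1, 64.5 to 74.2 CPM in MCT-vehicle and 79.7 to 87.9 CPM in Control. Its log2 fold change was -0.31 ± 0.06 in MCT-vehicle (edgeR adjusted p = 0.00454) and -0.21 ± 0.06 in MCT-Fer-1 (0.0486) against Control. Zfyve9, which encodes the adaptor SARA that presents SMAD2 and SMAD3 to the receptor, was at 37.1 to 42.4 CPM in MCT-Fer-1, 34.5 to 41.9 CPM in MCT-vehicle and 44.7 to 51.5 CPM in Control, with -0.37 ± 0.08 in MCT-vehicle (edgeR adjusted p = 0.00576) and -0.27 ± 0.08 in MCT-Fer-1 (0.0400). In MCT-vehicle both calls were made under all 21 alternatives. In MCT-Fer-1 those of Smad4 and Zfyve9 were made under 8 and 11 of 21, with adjusted p up to 0.133 and 0.114. The Smad4 call there was lost without any single one of MCT-Fer-1 2 to 4, MCT-vehicle 1 or 2, or Control 2 to 4, and that of Zfyve9 without any one of the MCT-Fer-1 libraries or of Control 2 to 4. Ppm1a, a SMAD phosphatase gene, had a log2 fold change of -0.16 ± 0.07 in MCT-vehicle against Control (adjusted p = 0.116).

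Of 9 genes known to be induced through SMAD2 and SMAD3, 9 were tested, and 3 rose and 0 fell in MCT-vehicle against Control, with a median log2 fold change of 0.24, where 10.3% of all genes tested rose and 8.28% fell. Smad7, also induced by such signals, was counted among the 10 activin genes and not here. It fell in the same comparison (-0.56 ± 0.12; edgeR adjusted p = 0.00633). Tgfbi, a matrix protein gene, was at 54.4 to 70.1 CPM in MCT-Fer-1, 64.1 to 96.6 CPM in MCT-vehicle and 47.9 to 61.9 CPM in Control. Its log2 fold change in MCT-vehicle against Control was 0.63 ± 0.13 (edgeR adjusted p = 0.00500). Each MCT-vehicle library was above each Control library, and the call was made under all 21 alternatives. Ccn2, the gene of a matricellular growth factor, was at 335 to 490 CPM in MCT-Fer-1, 419 to 586 CPM in MCT-vehicle and 228 to 442 CPM in Control. The groups overlapped, and MCT-vehicle against Control did not pass (0.52 ± 0.22; edgeR adjusted p = 0.125).

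Pmepa1, a feedback inhibitor of SMAD signals, was at 54.7 to 75.9 CPM in MCT-Fer-1, 71.3 to 94.3 CPM in MCT-vehicle and 55.4 to 67.1 CPM in Control. Its log2 fold change in MCT-vehicle against Control was 0.39 ± 0.11 (edgeR adjusted p = 0.0275). That call was lost without MCT-vehicle 1 (0.0703), MCT-vehicle 4 (0.0843), Control 1 (0.0721), Control 2 (0.0597) or Control 3 (0.0530). Bhlhe40, a transcriptional repressor gene, was at 49.2 to 93.0 CPM in MCT-Fer-1, 66.6 to 88.4 CPM in MCT-vehicle and 43.7 to 58.5 CPM in Control. Its log2 fold change in MCT-vehicle against Control was 0.58 ± 0.17 (edgeR adjusted p = 0.0333). For both genes each MCT-vehicle library was above each Control library. The Bhlhe40 call was not made without MCT-vehicle 1 (0.0844), MCT-vehicle 2 (0.0568), MCT-vehicle 4 (0.0626), Control 2 (0.0851), Control 3 (0.0631), Control 4 (0.0953), or MCT-vehicle 2 and Control 4 together (0.137). Against Control 0 of the 9 genes passed in MCT-Fer-1, with a median of 0.24, where 6.67% of all genes tested rose and 4.12% fell. In MCT-Fer-1 against MCT-vehicle, where 0% of all genes tested passed, 0 of the 9 did, with a median of -0.21. These genes answer to TGF-beta as well as to activin, so that the 2 ligand classes cannot be told apart from them.

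**Figure D4:**
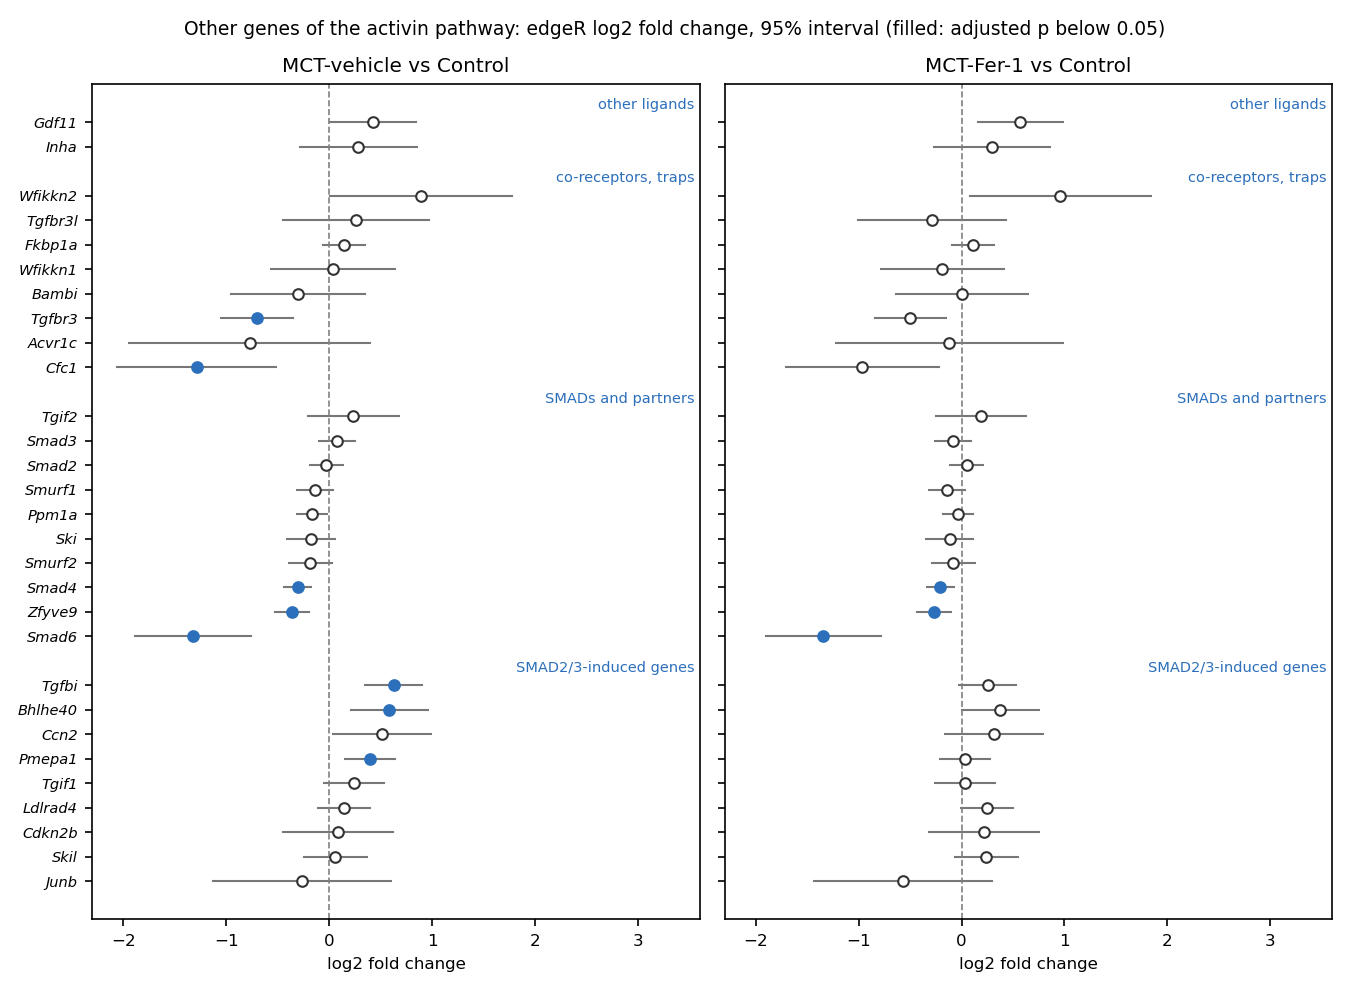
Log2 fold changes (horizontal axes) of the tested genes of the 4 further pathway lists, with MCT-vehicle (left) and MCT-Fer-1 (right) each set against the same Control libraries, with 95% intervals from edgeR and filled points where the adjusted p was below 0.05. Smad6 and Cfc1 stand farthest to the left in MCT-vehicle, and Smad4, Zfyve9 and Smad6 are the filled points in MCT-Fer-1.

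Markers of several lung cell types also differed between the groups. Macrophage markers summed to 1347 to 1506 CPM in MCT-Fer-1, 1298 to 1967 CPM in MCT-vehicle and 923 to 1032 CPM in Control, and 8 of 10 rose in MCT-vehicle and 7 of 10 in MCT-Fer-1 against Control, where 10.3% and 6.67% of all genes tested rose. Without MCT-vehicle 2 and Control 4, 5 of 10 rose in MCT-vehicle, where 1675 of 15314 genes were called in either direction, against 2843 of 15257 with all libraries. Marco, a scavenger receptor gene of alveolar macrophages, is among the risers in both comparisons. It was at 0 in the 4 Control libraries and reached only 0.853 CPM in MCT-Fer-1 and 1.22 CPM in MCT-vehicle. Fibroblast and pericyte markers summed to 953 to 1101 CPM in MCT-Fer-1, 1161 to 1942 CPM in MCT-vehicle and 777 to 1093 CPM in Control. Of these, 3 of 7 rose in MCT-vehicle and 0 of 7 in MCT-Fer-1 against Control, where 10.3% and 6.67% of all genes tested rose. In MCT-vehicle 1 of 7 was called without Control 2, 3 or 4 or in a fit of 2 groups. In MCT-Fer-1, 3 of 7 (Col1a1, Dcn and Lum) were called without MCT-vehicle 2 or in a fit of 2 groups, and 1 with DESeq2 or limma voom. These went both ways. With all 12 libraries, Dcn was lower in MCT-Fer-1 than in Control (log2 fold change -0.67 ± 0.50). Col1a1 (0.48 ± 0.15) and Lum (0.55 ± 0.34) were higher. Endothelial markers summed to 2718 to 3696 CPM in MCT-Fer-1, 2282 to 2829 CPM in MCT-vehicle and 3774 to 4072 CPM in Control. Against Control, 1 of 7 was higher and 3 lower in MCT-vehicle, and 1 higher and 2 lower in MCT-Fer-1. Over all genes tested, 10.3% rose and 8.28% fell in MCT-vehicle, and 6.67% rose and 4.12% fell in MCT-Fer-1. The sum of smooth muscle markers overlapped between the groups, at 828 to 1373 CPM in MCT-Fer-1, 1011 to 1691 CPM in MCT-vehicle and 745 to 1319 CPM in Control, and edgeR called 0 of 6 in any comparison, while DESeq2 called 2 (Acta2 and Des) in MCT-vehicle against Control. Of lung epithelial markers 0 of 5 were called by edgeR and of heart-muscle markers 0 of 7. Tnnt2, a heart-muscle marker, was called in MCT-vehicle without Control 4, and in both comparisons with Control without MCT-vehicle 2 and Control 4. DESeq2 called C1qa, C1qc, Col1a1 and Clec14a among all these markers in MCT-Fer-1 against MCT-vehicle, where it called 227 of 15148 genes. C1qa, C1qc and Col1a1 were lower in MCT-Fer-1 and Clec14a higher, and edgeR called none of them (adjusted p from 0.189 to 0.214). The part of these shifts in the values of the activin genes was not tested.

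The 4 called genes were also set beside other genes by their pattern over the 12 libraries. Likeness was measured as the root mean square difference of z-scored log2 CPM, which is 0 for identical patterns. Among the 10 genes, the closest pairs were Inhba with Fstl1 (0.659) and Inhbb with Smad7 (0.786), and the farthest were Inhbb and Fstl1 (1.78). In MCT-vehicle, Inhba and Fstl1 were called higher than in Control, and Inhbb and Smad7 lower. The patterns span the groups of these same libraries, so the pairs are no separate evidence of a link. The search outside the 10 left out genes named by an identifier only. Closest to Inhba there were Lpxn, a leukocyte adhesion adaptor gene (0.211), Jaml, a leukocyte junction protein gene (0.347), and G3bp2, a stress granule protein gene (0.355). Lpxn averaged 34.5 ± 4.97 CPM in MCT-Fer-1, 37.4 ± 9.72 CPM in MCT-vehicle and 23.6 ± 3.46 CPM in Control (SD, n = 4 each).

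Closest to Inhbb were Rxrb, a retinoid X receptor gene (0.302), Hps4, a gene for the making of lysosome-related organelles (0.372), and Repin1, a zinc finger protein gene (0.384). Closest to Fstl1 were Ptprv, a receptor phosphatase gene (0.235), Calu, a calcium-binding protein gene of the secretory pathway (0.309), and Fbn1, the gene of the microfibril protein fibrillin-1 (0.316). Closest to Smad7 were Ripor1 (0.261), and the transcription factor genes Sox7 (0.286) and Foxf1 (0.298), both active in lung endothelium. These neighbours were picked for their likeness in the same libraries, and no test of it was made.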

How the data were processed

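For 12 whole-lung libraries the authors deposited values that were taken as raw read counts, counted per gene by the authors and not normalised before deposit. This is an assumption, since the column headers call them expression values and name no unit. An Ensembl rat identifier and symbol were given for each of 32883 genes. The sources used here do not give the aligner, counting tool, strand setting or genome build. Groups came from the sample titles. Genes were kept by edgeR's filterByExpr, which left 15257 with 99.9% of the counts. Counts were TMM-scaled, all 12 libraries were fitted with 1 coefficient per group (edgeR quasi-likelihood, robust, 9 residual degrees of freedom), and p-values were Benjamini-Hochberg adjusted over all genes tested, with a threshold of 0.05. The standard error is the size of the log2 fold change divided by the square root of F. Intervals are 95% and cover the spread between these libraries; the floor of 3 counts covers counting error only. Versions were edgeR 4.0.16, DESeq2 1.42.0 and limma 3.58.1 in R 4.3.3, and the edgeR step was checked on simulated data.

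The 10 genes, the pathway and marker lists and the tests were chosen with earlier results of these data known. Named were all 10 genes, up to 4 of each pathway list with the smallest p in MCT-vehicle against Control plus any called elsewhere, and for each called activin gene the 3 most alike genes outside the 10. Genes named by an identifier only were left out of that search. Foxj1, Col1a2 and Pecam1 had no match in the table. A gene of the SMAD2 and SMAD3 list is not reported here, and the counts of that list leave it out. No gene lengths of the files' annotation were used, so levels are not compared between genes. Library pairs correlated at 0.945 to 0.982 in log2 CPM, and the closest pair still had a chi-square of 10.4 per degree of freedom, above sampling noise. As alternatives, size factors, the filter and the tool (DESeq2, limma voom) were changed, the fit was limited to 2 groups or given a replicate block, libraries were thinned to the smallest total, and libraries were left out. The same alternatives for the pathway and marker lists were added after seeing the data.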

Additional observations from a re-analysis of the deposited data

Results flagged for a closer look

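The level of Acvr1 in MCT-Fer-1 3 was 37.4 CPM, against 34.9 to 35.3 CPM in the other MCT-Fer-1 libraries, a gap of 0.845 of the group's range, above Dixon's 95% critical value for 4 samples. It was the 1 flagged value among 30 groups of 4 libraries examined (10 genes in 3 groups), and chance flags about 1 in 20 groups. The value lay inside the MCT-vehicle range of 31.1 to 37.6 CPM.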

How the results depend on the processing

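The 4 activin genes called in MCT-vehicle against Control ranged from 1.36 to 2.07 (Inhba), -0.49 to -0.41 (Inhbb), 0.36 to 0.51 (Fstl1) and -0.63 to -0.51 (Smad7) in log2 fold change over 21 alternatives. On leaving out each library, 1 to 3 activin genes were called in MCT-Fer-1 against Control. Signs turned only for values that did not pass the test: Acvr1 in MCT-Fer-1 against MCT-vehicle was -0.014 after thinning, Fst there was -0.064 with limma voom and -0.076 without MCT-vehicle 2 and Control 4, and on leaving out each library Fst ran from -0.17 to 0.34, Fstl1 there from -0.13 to 0.015 and Acvr2a in MCT-vehicle against Control from -0.059 to 0.030. The cause was not tested.

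In MCT-vehicle against Control, 1 further ligand gene was called (Nodal) with no filter and with DESeq2, and 1 co-receptor or trap gene after thinning and without MCT-vehicle 2 and Control 4. Of MCT-Fer-1 against Control, 1 ligand gene (Gdf11) was called with DESeq2, 1 co-receptor or trap gene with DESeq2 and 2 with limma voom, and 1 SMAD gene with no filter, after thinning and without MCT-vehicle 2 and Control 4. On leaving out each library, co-receptor and trap genes called ran from 1 to 3 in MCT-vehicle and 0 to 1 in MCT-Fer-1, genes induced through SMAD2 and SMAD3 from 1 to 3 in MCT-vehicle, and SMAD genes in MCT-Fer-1 from 1 to 3.

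Over all genes, 2843 were called in MCT-vehicle against Control and 1675 without MCT-vehicle 2 and Control 4. In MCT-Fer-1 against Control the counts were 1646 and 978, and 977, 995 and 978 without MCT-Fer-1 2, MCT-Fer-1 3 and Control 4. Between MCT-Fer-1 and MCT-vehicle they were 0 with edgeR, 227 with DESeq2 and 41 without MCT-vehicle 3. Libraries of the same replicate number did not deviate together (r from -0.0633 to 0.102), so the numbers were not taken as pairs. With the replicate number as a block, 4, 0 and 3 activin genes were called in MCT-vehicle against Control, MCT-Fer-1 against MCT-vehicle and MCT-Fer-1 against Control, and 2, 1 and 4 of 8 libraries were most alike their own number. Smad4 in MCT-Fer-1 against Control was no longer called under the block (edgeR adjusted p = 0.0585), and Ccn2 in MCT-vehicle against Control was called (0.0465), as was Col1a1, a fibroblast marker, in MCT-Fer-1 against Control. Depth limits Inhba, which had 3 to 11 counts in the Control libraries.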
